A study of Homo sapiens with 8 samples.

Results

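The H/ACA box small nucleolar RNAs (snoRNAs) were the genes whose GENCODE 44 symbol starts with SNORA followed by a digit and that had at least 80 counts summed over all 8 RNA-seq libraries. By this rule 62 of the 213 SNORA genes of the count table were taken, out of 58302 genes in all. The members were selected on their summed level over both groups, so a level of at least 80 counts is no finding. The cells were A549, a line from a human lung adenocarcinoma, and 4 libraries were labelled siCTRL, transfected with a scramble siRNA, and 4 were labelled siAPEX1, transfected with an siRNA against APEX1, the gene of the DNA repair endonuclease APE1. The labels give no dose or time for either siRNA, and name no allele. Total RNA was read after a small RNA kit that tails the 3′ end of each RNA, which the authors altered to read primary miRNA transcripts too, and the counts on genes came to 1348386 to 1949886 in a library. The study calls its replicates biological, while the labels do not say whether they came from separate cultures, so p-values measure the spread between these samples.

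H/ACA box snoRNAs fold into 2 hairpins joined by a hinge that carries the H box, and end in a tail that carries the ACA box. Each is bound by the pseudouridine synthase dyskerin (DKC1) and its partners NOP10, NHP2 and GAR1. Many pair with ribosomal RNA to place a pseudouridine, while SNORA73 (U17) acts in the cleavage of the ribosomal RNA precursor. In human cells nearly all are cut from introns of host genes, many of which encode proteins of translation or are non-coding RNAs with no other known product.

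The sequences below are those on which the results turn, from the GENCODE 44 transcripts on GRCh38, with the H box (ANANNA, at most 15 bases from the middle) and the ACA box (3 bases from the 3′ end) in capitals. SNORA22C (chr7:65065999-65066132, plus strand) had the largest rise, and SNORA22 (chr7:65755526-65755659, plus strand) is its near copy. SNORA49 (chr12:132031224-132031359, plus strand) and SNORA54 (chr11:2963771-2963893, minus strand) rose by similar sizes from higher levels. SNORA75 (chr2:231455800-231455936, minus strand) and SNORA13 (chr5:112161485-112161617, plus strand) rose where their host genes fell. SNORA3B (chr11:8685439-8685569, plus strand) had the highest level, SNORA73B (chr1:28508559-28508762, plus strand) is the cleavage snoRNA, and SNORA63D (chr3:183451857-183451988, plus strand) alone had a negative log2 fold change.
SNORA22C: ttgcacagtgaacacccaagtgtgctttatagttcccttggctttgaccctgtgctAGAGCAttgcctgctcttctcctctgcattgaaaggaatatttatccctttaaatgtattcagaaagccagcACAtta
SNORA22: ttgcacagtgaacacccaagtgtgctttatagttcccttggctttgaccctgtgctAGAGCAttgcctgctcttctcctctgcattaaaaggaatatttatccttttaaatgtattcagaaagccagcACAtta
SNORA49: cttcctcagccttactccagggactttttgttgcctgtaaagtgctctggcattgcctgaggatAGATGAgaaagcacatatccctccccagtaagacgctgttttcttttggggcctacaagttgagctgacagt
SNORA54: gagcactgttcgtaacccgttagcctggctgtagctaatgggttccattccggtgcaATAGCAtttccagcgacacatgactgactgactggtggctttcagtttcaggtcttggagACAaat
SNORA75: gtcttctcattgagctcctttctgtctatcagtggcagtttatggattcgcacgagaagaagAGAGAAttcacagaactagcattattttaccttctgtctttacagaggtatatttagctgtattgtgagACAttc
SNORA13: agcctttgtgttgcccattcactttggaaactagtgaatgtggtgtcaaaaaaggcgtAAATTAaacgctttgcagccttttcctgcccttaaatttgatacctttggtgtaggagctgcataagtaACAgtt
SNORA3B: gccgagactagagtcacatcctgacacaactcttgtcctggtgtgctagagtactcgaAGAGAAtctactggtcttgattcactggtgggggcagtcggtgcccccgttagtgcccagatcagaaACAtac
SNORA73B: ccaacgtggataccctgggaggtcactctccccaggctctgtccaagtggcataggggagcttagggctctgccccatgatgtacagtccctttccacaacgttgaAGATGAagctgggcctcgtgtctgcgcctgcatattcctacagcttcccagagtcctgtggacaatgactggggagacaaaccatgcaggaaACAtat
SNORA63D: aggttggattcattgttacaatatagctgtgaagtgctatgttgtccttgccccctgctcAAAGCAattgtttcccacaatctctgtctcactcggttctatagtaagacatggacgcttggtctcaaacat

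SNORA22C and SNORA22 differed at 2 of 134 bases, G87A and C104T, counted from the 5′ end with the base of SNORA22C given before that of SNORA22. SNORA49 and SNORA63D hold ACA near the 3′ end but not exactly 3 bases from it as annotated. Over the members, ANANNA was found within 15 bases of the middle in 55 of 62 (88.7%) and ACA 3 bases from the end in 44 (71.0%), with both in 42 (67.7%). The same searches, on the given strand, found ANANNA in 40 of 87 C/D box snoRNA genes (46.0%), ACA in 2 (2.30%) and both in 0. The members were 122 to 272 bases long, with a median of 134 bases and 56 of 62 between 120 and 150, and their median GC content was 48.5%.

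Before the comparison, the labels and the cells were checked. APEX1 had 47 to 64 counts in the libraries labelled siCTRL and 19470 to 27916 in those labelled siAPEX1, against the label of silenced cells, and a count on the gene cannot tell its transcript from a transfected siRNA. Every direction given here is therefore that of the libraries as labelled. The A549 markers KRT7, KRT8, KRT18, KRT19, AKR1C2, AKR1B10, ALDH1A1 and TXNRD1 were detected in all 8 libraries, while PTPRC, PECAM1, COL3A1 and ALB had at most 1 count in any library and COL1A1 1 to 11. Of the A549 markers, KRT7, KRT8, KRT18 and KRT19 fell in the libraries labelled siAPEX1, with log2 fold changes of -1.21, -1.01, -1.36 and -2.31, while AKR1C2 and AKR1B10 rose, with 0.44 and 0.83, and ALDH1A1 and TXNRD1 did not pass, with -0.10 and 0.12. The part of these shifts in the results was not tested. All libraries labelled siAPEX1 were smaller than those labelled siCTRL, and their factors from the trimmed mean of M-values (TMM), which scale libraries to a shared middle of the genes, were 0.873 to 0.919 against 1.10 to 1.14.

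Levels of H/ACA box snoRNAs were higher in the libraries labelled siAPEX1 almost throughout. With edgeR's quasi-likelihood test and Benjamini-Hochberg adjustment over 5368 genes, 56 of the 62 members rose at an adjusted p of at most 0.05, 0 fell and 6 did not pass, while 15.9% of all genes tested rose and 15.8% fell. The median log2 fold change of the members was 0.53, with quartiles of 0.42 and 0.67, against a median of -0.0035 over all genes tested. The log2 fold changes ran from -0.20 for SNORA63D to 0.90 for SNORA22C, and 61 of 62 were positive. The CPM (counts per 1000000 counts of the library, its size corrected by the TMM factor) of the groups did not overlap in 49 members, all higher in the libraries labelled siAPEX1, against 14.0% of all genes tested. With a log2 fold change of at least 0.75 also required, 11 members passed, against 7.53% of all genes tested, and this count was 3 when all genes with at least 1 count were tested, again 3 when a gene had to reach 10 counts in each library, and 0 with library size only.

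The count depended on the scaling of the libraries. Without TMM factors, scaled by library size only, 24 members rose, against 6.33% of all genes, and 1 fell, SNORA63D (log2 fold change -0.54, edgeR adjusted p = 0.000331), against 36.2% of all genes. The median of the members was then 0.18 and that of all genes -0.34. The median of the members minus that of all genes was 0.53 in both fits, since a change of scaling moves every gene by nearly the same amount. Among the members given by value below, SNORA71B, SNORA71C, SNORA2B, SNORA20B, SNORA5A, SNORA13, SNORA74D and SNORA74B also did not pass with library size only, at log2 fold changes of 0.15, 0.08, 0.03, 0.38, 0.17, 0.09, 0.03 and -0.017. In bulk RNA, a higher share of these snoRNAs and less of other RNA per cell cannot be told apart.

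**Figure D1:**
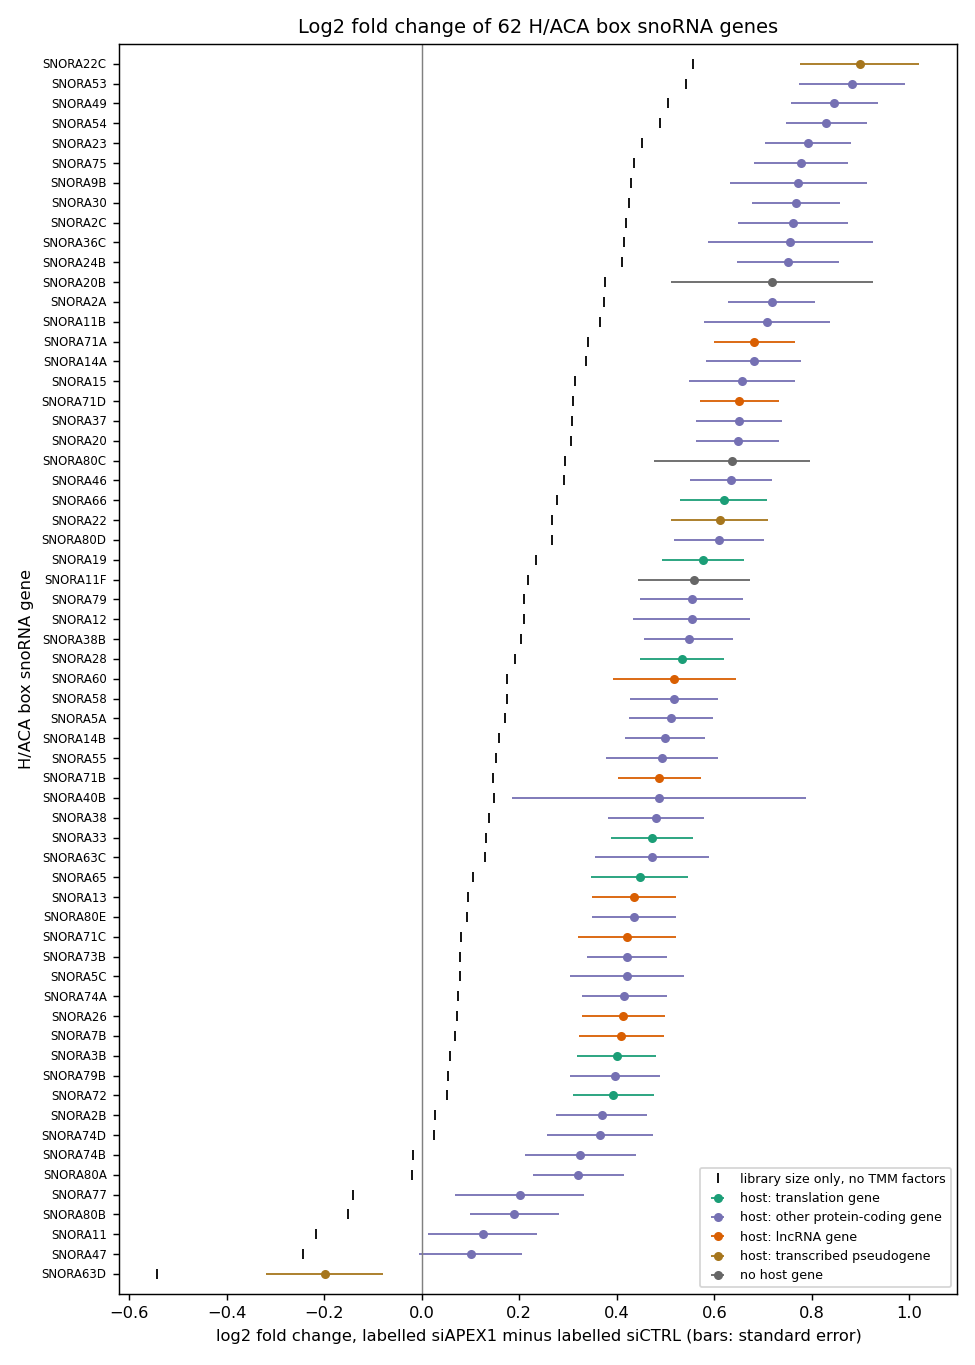
Log2 fold change (x axis, libraries labelled siAPEX1 minus those labelled siCTRL, 4 each) of each of the 62 H/ACA box snoRNA genes (y axis), with points at the edgeR estimate with TMM factors, bars for the standard error, colours for the class of host gene and black ticks for the estimate with library size only. The points run from -0.20 (SNORA63D) to 0.90 (SNORA22C) with a median of 0.53, and the ticks have a median of 0.18.

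The shift was present in each library. Relative to the mean of the libraries labelled siCTRL, the median over the members of the log2 CPM was 0.549, 0.516, 0.540 and 0.532 in replicates 1 to 4 labelled siAPEX1 and 0.037, -0.028, 0.011 and 0.00034 in replicates 1 to 4 labelled siCTRL. No library of either group lay between the groups. The members held 3.72% ± 0.113 (SD, n = 4) of the counts of the libraries labelled siCTRL (3.58% to 3.86%) and 4.23% ± 0.215 of those labelled siAPEX1 (4.05% to 4.54%), a share that needs no scaling factor. With mitochondrial and ribosomal RNA genes left out of the total, the shares were 6.07% ± 0.171 and 6.88% ± 0.368. Of the counts on snoRNA genes alone, the members held 18.2% ± 0.761 and 18.5% ± 1.08, so the groups overlapped within their spread on that base.

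**Figure D2:**
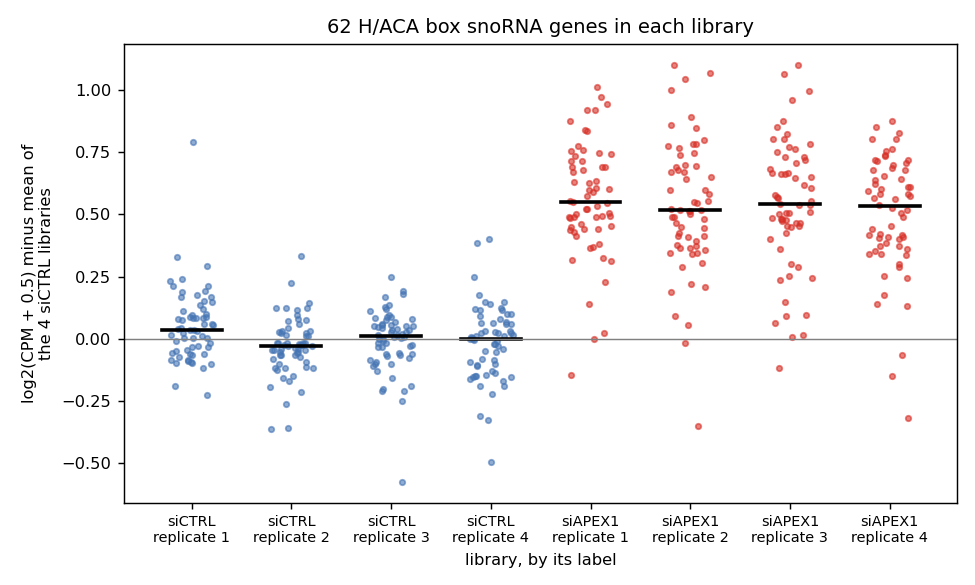
Log2(CPM + 0.5) of each of the 62 H/ACA box snoRNA genes (points) in each library (x axis), as the difference from the mean of the 4 libraries labelled siCTRL (y axis), with a black line at the median of each library. The medians lie between -0.028 and 0.037 in the libraries labelled siCTRL and between 0.516 and 0.549 in those labelled siAPEX1.

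SNORA22C, in the pseudogene CCT6P3, had the largest rise. The 8 members with the largest rise, given here first, were chosen among those called with separate CPM. That their groups do not overlap is therefore no finding. Values of single libraries are in the order of replicates 1 to 4, those labelled siCTRL before the word against and those labelled siAPEX1 after it. The CPM of SNORA22C were 34.2, 35.4, 40.3 and 37.1 against 72.5, 76.3, 62 and 64.3. The groups were well apart, and the log2 fold change was 0.90 ± 0.122 (standard error, SE, as after each log2 fold change, edgeR adjusted p = 1.36e-07). SNORA22, in the pseudogene CCT6P1, guides modification of 28S ribosomal RNA and had CPM of 123, 114, 134 and 103 against 169.6, 197, 165 and 195. The groups did not overlap, with a log2 fold change of 0.61 ± 0.100 (SE, adjusted p = 5.21e-06). The pair is 98.5% identical, and the counting leaves out reads that fit both genes equally, so each count covers only reads that were placed at 1 of them. Whether reads were placed at the wrong copy was not tested.

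SNORA53 lies in SLC25A3, the mitochondrial phosphate carrier, and overlaps an annotated exon of it on the same strand. It had CPM of 104, 91.0, 104 and 74.7 against 188, 159.9, 195 and 149. All libraries labelled siAPEX1 were above all libraries labelled siCTRL, with a log2 fold change of 0.88 ± 0.109 (SE, adjusted p = 1.50e-08). SNORA49, in EP400, a subunit of a chromatin remodelling complex, had CPM of 415, 385, 432 and 437 against 791, 717, 812 and 681. Its groups were separate, with a log2 fold change of 0.85 ± 0.0885 (SE, adjusted p = 3.06e-10). SNORA54, in NAP1L4, a histone chaperone, guides modification of 28S ribosomal RNA. It had CPM of 829, 909, 919 and 906 against 1634, 1516, 1577 and 1605, with no overlap (log2 fold change 0.83 ± 0.0831, adjusted p = 1.04e-10).

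SNORA23, in the importin gene IPO7, is another guide for 28S ribosomal RNA, with CPM of 686, 647, 659 and 557 against 1201, 993, 1111 and 1109.7. The groups were separate (log2 fold change 0.79 ± 0.0890, adjusted p = 1.85e-09). SNORA75, in NCL, the gene of the nucleolar protein nucleolin, had CPM of 423, 479.9, 449.5 and 446 against 753, 943, 640.1 and 748. Replicate 2 labelled siAPEX1 was the highest and replicate 3 the lowest of its group, still above every library labelled siCTRL (log2 fold change 0.78 ± 0.0960, adjusted p = 1.56e-08). SNORA9B, in the helicase gene DDX55, and SNORA30, in the chromatin remodeller SRCAP, rose by 0.77 each on the log2 scale (adjusted p = 2.66e-05 and 4.79e-09). SNORA9B was a low member, at 31.1 ± 3.35 against 52.6 ± 10 CPM (SD, n = 4 each), and SNORA30 stood at 195 ± 11.9 against 331 ± 12.1 CPM. No member met the rule for the largest falls.

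The most abundant members rose too. The 5 with the highest mean CPM, SNORA3B, SNORA72, SNORA71D, SNORA33 and SNORA73B, held 34.1% of the counts of all members, whose total counts ran from 89 to 40547 with a median of 3735. SNORA3B, in RPL27A, the gene of a ribosomal protein, had CPM of 3016, 2667, 2634 and 2689 against 3752, 3521, 3692 and 3560.2. The groups did not overlap, with a log2 fold change of 0.40 ± 0.0813 (SE, adjusted p = 0.000143). SNORA72, in RPL30 and known as a guide for 5.8S ribosomal RNA, had CPM of 2704, 2513, 2414 and 2618 against 3528, 2958, 3553 and 3416, with no overlap and a log2 fold change of 0.39 ± 0.0835 (SE, adjusted p = 0.000267). It overlaps an exon of RPL30-AS1 on the opposite strand, and reads of the strands can be told apart only if the counting used strand, which is not stated.

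SNORA33, in RPS12 and a guide for 28S ribosomal RNA, had CPM of 2059, 2206, 2048 and 2265 against 3043, 2648, 3199 and 3008. Its groups were separate (log2 fold change 0.47 ± 0.0835, adjusted p = 1.79e-05). SNORA73B lies in RCC1, the exchange factor of the RAN GTPase, and also within SNHG3. It had CPM of 2249, 2077, 2181 and 1919 against 2878, 2709, 2900.1 and 2794, with a log2 fold change of 0.42 ± 0.0821 (SE, adjusted p = 8.03e-05) and no overlap. Its partner SNORA73A, 93.2% identical, had 0 counts in every library and overlaps an exon of SNHG3. With library size only, the log2 fold changes of SNORA3B, SNORA72, SNORA33 and SNORA73B were 0.058, 0.052, 0.13 and 0.079 and none passed (edgeR adjusted p = 0.594, 0.649, 0.208 and 0.463). Per 100 bases of length, the mean CPM in the libraries labelled siCTRL was 2101 for SNORA3B, 1941 for SNORA72, 1650 for SNORA33 and 1620.5 for SNORA71D, followed by 1274 for SNORA20 and 1099.9 for SNORA19, with the longer SNORA73B next at 1033.

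**Figure D3:**
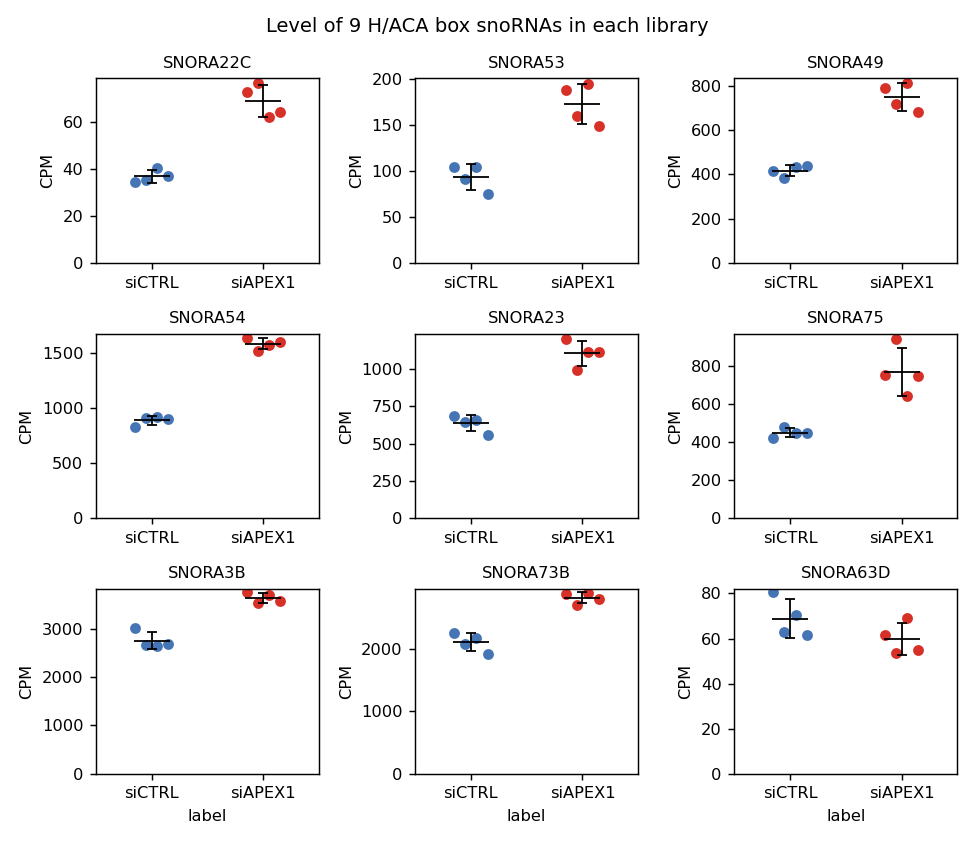
CPM (y axis, from 0) of 9 H/ACA box snoRNAs in the 4 libraries of each label (x axis), with points for libraries and black bars for the mean and SD. In 8 of the 9 every library labelled siAPEX1 is above every library labelled siCTRL, and in SNORA63D the groups overlap. SNORA22C, SNORA53, SNORA49, SNORA54, SNORA23 and SNORA75 were chosen among members called with separate groups, so their separation is no finding. Of all genes tested, 14.0% had separate groups with higher CPM in the libraries labelled siAPEX1.

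Members that share a host had unequal log2 fold changes. SNHG17, a non-coding host of snoRNAs, held SNORA71A, SNORA71B, SNORA71C and SNORA71D, guides for 18S ribosomal RNA, with log2 fold changes of 0.68, 0.49, 0.42 and 0.65 (adjusted p = 1.11e-08, 1.34e-05, 0.00112 and 1.93e-08). SNORA71D had CPM of 2104, 2187, 2257 and 2138 against 3662, 3283, 3445 and 3254, and SNORA71A 814, 834, 769 and 788 against 1316, 1273, 1268 and 1283, both with separate groups. SNORA71C was the exception, with CPM of 809, 594, 645 and 613 against 1083, 912, 782 and 787, since replicate 1 labelled siCTRL lay above replicates 3 and 4 labelled siAPEX1. SNHG17 itself had 22 to 35 counts against 18 to 23 and did not pass (log2 fold change 0.22 ± 0.214, adjusted p = 0.470).

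KANSL2, a gene of the NSL histone acetyltransferase complex, held SNORA2A, SNORA2B and SNORA2C. SNORA2A had CPM of 308, 293, 322 and 307 against 465, 482, 554 and 519 (log2 fold change 0.72, adjusted p = 1.56e-08). SNORA2C had 62.4, 66.3, 58.4 and 57.0 against 85.6, 123, 107 and 99.3 (0.76, adjusted p = 7.94e-07), and SNORA2B 301, 243, 279.9 and 235 against 340.1, 368, 324 and 337 (0.37, adjusted p = 0.00193). In all 3 the groups were separate. SNORA2B did not pass when all genes with at least 1 count were tested (log2 fold change 0.27, adjusted p = 0.0533). The differences between members of a host were not tested. KANSL2 had at most 10 counts in any library and was not tested.

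The host genes gave other values than the members within them. Hosts of 40 members, 36 genes, passed the filter on low counts, and 1 of these rose, 7 fell and 28 did not pass, where 15.9% of all genes tested rose and 15.8% fell. With library size only 0 hosts rose and 18 fell, where 36.2% of all genes fell. The median log2 fold change of the tested hosts was -0.088, against 0.51 for the members within them, and 37 of the 40 members had a larger log2 fold change than the host, the exceptions being SNORA80E, SNORA26 and SNORA77. The log2 ratio of member counts to host counts (each plus 2) needs no scaling factor, since both are from the same library. It was higher in the libraries labelled siAPEX1 in 37 of the 40 pairs, by a median of 0.55. In 22 pairs the ratios did not overlap and the exact two-sided permutation test gave 0.0286, the smallest p that 4 libraries against 4 can give, not adjusted over the 40 pairs, and in 0 pairs did it give that p for a lower ratio. The ratio was not taken against genes that are not hosts, so whether 22 of 40 is particular to the hosts was not tested. Of the 62 members 58 had a host in the table, and the hosts not tested had too few counts. Among the 40 pairs are members that overlap an exon of their own host on the same strand, such as SNORA13, SNORA75, SNORA53, SNORA71A, SNORA71C and SNORA71D. The counting drops reads that fall on both genes, and the effect of this on the ratios was not tested.

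Some of the widest gaps were in hosts that fell. The gap is the member minus its host, so a fall of the host widens it by construction. SNORA13, a guide for 18S ribosomal RNA, had CPM of 947, 883, 851 and 897 against 1266, 1041, 1251 and 1279.7, a log2 fold change of 0.44 ± 0.0868 (SE, adjusted p = 0.00011). Its host EPB41L4A-AS1, a long non-coding RNA gene, had 53, 45, 48 and 30 counts against 6, 12, 9 and 5, a log2 fold change of -1.79 ± 0.252 (SE, adjusted p = 2.66e-07). The log2 ratio of SNORA13 to its host was 5.10, 5.28, 5.20 and 5.66 against 7.59, 6.52, 7.30 and 7.85, a difference of 2.0 with separate groups (exact permutation test, p = 0.0286).

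NCL, host of SNORA75, had 270, 259, 303 and 272 counts against 99, 110, 142 and 98 and fell by 0.65 on the log2 scale (standard error 0.105, adjusted p = 4.24e-06). The log2 ratio of SNORA75 to NCL was 1.63, 1.93, 1.67 and 1.56 against 3.18, 3.38, 2.63 and 3.24, a difference of 1.41 with separate groups (exact permutation test, p = 0.0286). EIF3A, a subunit of translation initiation factor 3, had 310, 352, 339 and 341 counts against 136, 132, 129 and 144 and fell by 0.66 (adjusted p = 1.82e-06). Its SNORA19, a guide for 28S ribosomal RNA, had CPM of 1418, 1388, 1317 and 1509 against 2055, 1915, 2233 and 2192, with separate groups and a log2 fold change of 0.58 (adjusted p = 5.49e-07). SNORA53 and its host SLC25A3 (log2 fold change -0.34, adjusted p = 0.0264, and 0.139 with DESeq2) had a log2 ratio higher by 1.21 (exact permutation test, p = 0.0286).

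The low members SNORA36C and SNORA74B lie in AAK1, a kinase of endocytosis, and ATP6V0E1, a subunit of the vacuolar proton pump. SNORA36C had CPM of 17.1, 21.3, 20.9 and 14.4 against 29.6, 29.2, 36.8 and 29.4 (log2 fold change 0.76, adjusted p = 0.000481), while AAK1 had 17 to 23 counts against 4 to 8 (log2 fold change -1.07, adjusted p = 0.00656). SNORA74B had CPM of 78.4, 66.3, 58.4 and 69.2 against 87.3, 86.0, 75 and 92.9, which overlap (log2 fold change 0.32, adjusted p = 0.0246), while ATP6V0E1 had 36 to 46 counts against 5 to 9 (log2 fold change -1.68, adjusted p = 4.52e-07). The call of SNORA74B was lost without replicate 4 labelled siAPEX1 (adjusted p = 0.0687) and without replicates 2 or 3 labelled siCTRL (0.0538 and 0.120), with DESeq2 (0.0881), with all genes of at least 1 count (0.279) and with a minimum of 10 counts per library (0.0938), and with library size only the direction turned (log2 fold change -0.017, edgeR adjusted p = 0.923). The remaining host that fell was MAGED2 (log2 fold change -0.55, adjusted p = 0.0362, and 0.145 with DESeq2), whose SNORA11 did not pass (0.12, adjusted p = 0.434). NAP1L4, host of SNORA54, alone rose (log2 fold change 0.47, adjusted p = 0.0199, 0.0921 with DESeq2 and 0.533 with library size only), with 35 to 55 counts against 36 to 44, less than its member.

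**Figure D4:**
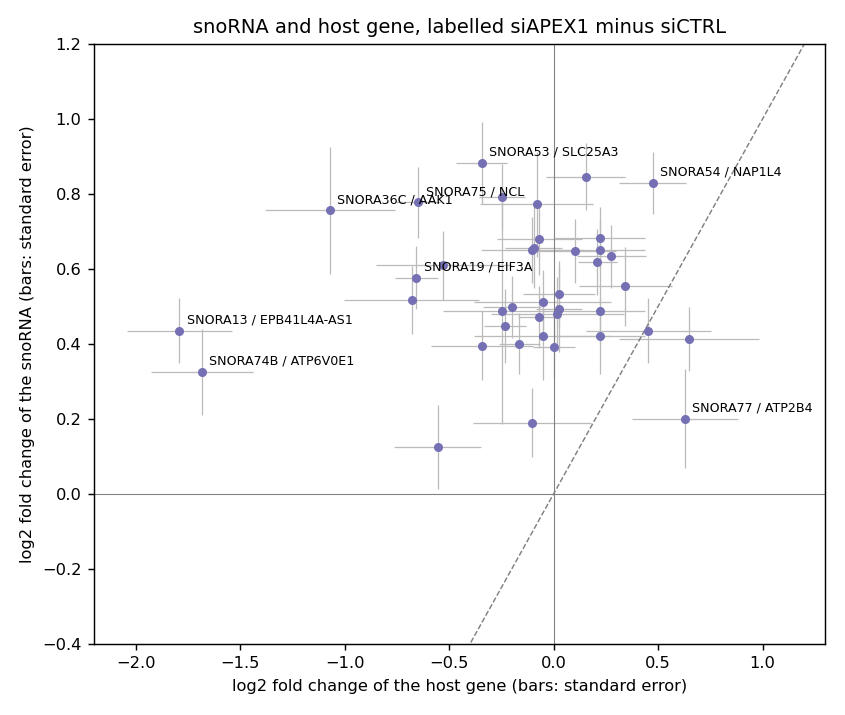
Log2 fold change of each snoRNA (y axis) against that of its host gene (x axis) for the 40 members whose host was tested, libraries labelled siAPEX1 minus those labelled siCTRL, with bars for the standard error and a dashed line where both are equal. 37 of 40 points lie above the line, the farthest being SNORA13 with its host at -1.79.

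The counts by class of host and by target stand beside 56 of all 62 members and 15.9% of all genes tested that rose with TMM factors. By class of host, all 7 members in genes of translation rose (median log2 fold change 0.47), as did all 8 in long non-coding RNA genes (0.46) and all 3 without a host (0.64). Of the 41 in other protein-coding genes 36 rose (0.55), and of the 3 in transcribed pseudogenes 2 rose (0.61). SNORA73B, SNORA74A and SNORA74D, counted among the 41, also lie within SNHG3 or SNHG4. SNORA22C and SNORA63D, counted among those in pseudogenes, also lie within another gene with the same symbol as the host. With library size only, 6.33% of all genes rose and 36.2% fell. On that scale 2 of the 7 in genes of translation rose, 2 of the 8 in long non-coding RNA genes and 0 of the 3 without a host. Of the others, 18 of the 41 in other protein-coding genes rose and 2 of the 3 in pseudogenes, where SNORA63D fell. By target, 15 of 16 guides for 18S ribosomal RNA rose (median log2 fold change 0.51), the exception being SNORA77, and 11 of 11 guides for 28S ribosomal RNA (0.52), or 6 and 5 with library size only. The 33 members with no target in the list used had a median of 0.55, with 28 of them called higher and 13 with library size only, and no member was listed for an snRNA. No test of a difference between these classes was run.

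SNORA5A, in TBRG4 and a guide for 18S ribosomal RNA, had CPM of 475, 522, 522 and 468 against 727, 666, 735 and 705, with separate groups (log2 fold change 0.51 ± 0.0861, adjusted p = 7.75e-06). The members that did not pass were SNORA63D, SNORA47, SNORA11, SNORA80B, SNORA77 and SNORA40B. SNORA63D lies in LINC00888, classed here with the transcribed pseudogenes. SNORA63D had CPM of 80.5, 63.0, 70.4 and 61.4 against 61.8, 53.6, 69.2 and 54.8, and the groups overlapped (log2 fold change -0.20 ± 0.121, adjusted p = 0.218). SNORA47, SNORA11, SNORA80B and SNORA77 had log2 fold changes of 0.10, 0.12, 0.19 and 0.20, or -0.24, -0.22, -0.15 and -0.14 with library size only. SNORA80B passed without replicate 2 labelled siAPEX1 (edgeR adjusted p = 0.0438) and with TMM factors from protein-coding genes (0.0484). SNORA74D lies in MATR3 and also within SNHG4. It passed with overlapping groups, at 940.3, 762, 899.5 and 1087 CPM against 1378, 1372, 844 and 1159.7 (log2 fold change 0.37, adjusted p = 0.00865). Replicate 3 labelled siAPEX1 lay below 3 of the libraries labelled siCTRL, and without replicate 2 labelled siCTRL the call was lost (adjusted p = 0.0508), as it was with a minimum of 10 counts per library (0.0546).

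Just inside the limit of 80 counts, SNORA40B had 12, 15, 13 and 7 counts against 7, 9, 15 and 11, and SNORA20B 61, 28, 25 and 35 against 32, 47, 36 and 41. Just outside it, SNORA22B had 7, 10, 5 and 6 against 5, 4, 13 and 7, and SNORA30B 1, 6, 5 and 6 against 2, 1, 4 and 3. SNORA20B, which has no host gene, had overlapping CPM (log2 fold change 0.72, adjusted p = 0.00637) and lost its call without replicate 3 labelled siCTRL (0.0522).

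Of the SNORA genes that were not members, 125 had 0 counts in all libraries and 26 had fewer than 80. Of the 125, 64 (51.2%) overlap an exon of another gene on the same strand in GENCODE 44, against 11 of the 62 members (17.7%), and the counting drops reads that fall on more than 1 gene. A count of 0 in such a gene, SNORA73A included, was therefore not read as its level. Whether dropped reads gave these counts of 0 was not tested. The 51 members without such an overlap had a median log2 fold change of 0.52 and 45 rose. The 11 with one had a median of 0.65 and all rose, where 15.9% of all genes tested rose with TMM factors. With library size only 18 and 6 rose, where 6.33% of all genes did. Another SNORA gene was at least 80% identical to 38 of the members and at least 95% identical to 6 of them, which include SNORA22, SNORA22C, SNORA36C and SNORA40B.

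The other large class of snoRNAs had a similar median and a wider range. Of 87 C/D box genes with at least 80 counts, which guide 2′-O-methylation, 56 rose, 9 fell and 22 did not pass, with a median log2 fold change of 0.48 (quartiles 0.20 and 0.68, range -1.03 to 1.14), beside the 15.9% and 15.8% of all genes tested. With library size only, 30 C/D box genes rose and 19 fell, with a median of 0.13, where 6.33% of all genes rose and 36.2% fell. The H/ACA members had 21.0 to 23.6 counts per 100 counts on C/D box genes in the libraries labelled siCTRL and 22.3 to 25.8 in those labelled siAPEX1, which overlap. The small Cajal body RNAs, 16 of 25 tested, all rose, with a median of 0.58, and 6 rose with library size only, again beside 6.33% of all genes. No test of the difference between the classes was run.

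**Figure D5:**
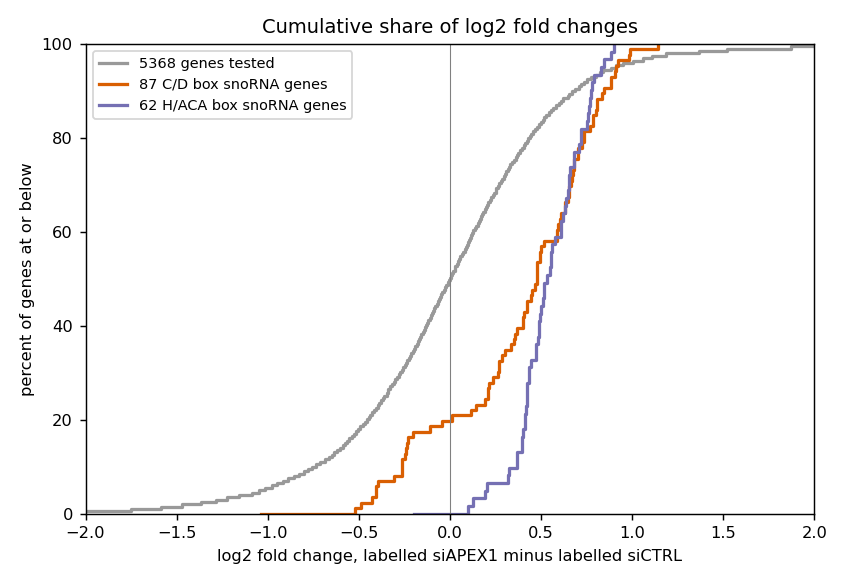
Percent of genes (y axis) at or below each log2 fold change (x axis, libraries labelled siAPEX1 minus those labelled siCTRL, from -2 to 2) for the 62 H/ACA box snoRNA genes, 87 C/D box snoRNA genes and all 5368 genes tested. The medians are 0.53, 0.48 and -0.0035, and the H/ACA line spans a narrower range (-0.20 to 0.90) than the C/D line (-1.03 to 1.14).

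Genes for H/ACA proteins were looked at in the same fits. Of a list of 20 genes for core proteins, assembly and 3′ end processing, 12 had enough counts for a test, and 1 rose and 1 fell, where 15.9% of all genes tested rose and 15.8% fell. With library size only 0 rose and 5 fell, where 6.33% of all genes tested rose and 36.2% fell. The 5 were NOP10, NHP2, RUVBL1, TENT4B and MTREX (edgeR adjusted p = 0.00893, 0.00086, 0.00727, 0.0259 and 3.86e-06). The core genes DKC1, the pseudouridine synthase, NOP10 and NHP2 had log2 fold changes of 0.05, -0.28 and -0.40 (adjusted p = 0.845, 0.292 and 0.0922), and GAR1, at 2 to 8 counts, was not tested. DKC1 had 63, 62, 78 and 59 counts against 45, 31, 54 and 42, or 30.0 to 36.1 CPM against 25.2 to 38.9, so the groups overlapped. Of the assembly factors NOLC1, RUVBL1, RUVBL2 and ZNHIT3 were tested and 0 of 4 passed.

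Among the genes for 3′ end processing, MTREX, the helicase of the nuclear exosome, fell by 0.56 on the log2 scale (standard error 0.151, adjusted p = 0.00335), with 76, 78, 75 and 60 counts against 32, 31, 28 and 33. ZCCHC7, a subunit of the TRAMP complex that adds short adenosine tails for the exosome, had 20, 22, 22 and 27 counts against 15, 21, 29 and 23 and rose by 0.60 (standard error 0.219, adjusted p = 0.0318), with 10.1 to 14.9 CPM against 12.4 to 20.9, which overlap. The call of ZCCHC7 was lost with DESeq2, with library size only, with all genes of at least 1 count and without replicates 3 or 4 labelled siAPEX1 or replicates 1, 2 or 3 labelled siCTRL, where 0 genes of the list rose, and without replicate 1 labelled siAPEX1 2 genes of the list fell. PARN, TENT4B and DIS3 did not pass, with log2 fold changes of 0.15, -0.26 and 0.25. The telomerase RNA TERC, which also has an H/ACA domain, had 0 counts in every library.

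Over the 62 members, the log2 fold change had a Pearson correlation of -0.03 with the log2 mean CPM, 0.04 with length and -0.30 with GC content (Spearman -0.13, -0.09 and -0.35), and over the 59 in a host -0.07 with the distance to the next exon. These values describe members measured in the same libraries, which are not independent.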

How the data were processed

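RNA-seq counts per gene were analysed for 8 A549 libraries, 4 labelled siCTRL and 4 labelled siAPEX1, grouped by their labels. The authors trimmed adapters and tails, aligned the reads to GRCh38 with STAR (2.5.3a per the submitters' processing notes) and deposited raw counts from its GeneCounts function. The strand setting and the release of the annotation are not given in the sources used here. A column and a sample label that differ in the library number were matched by treatment and replicate number. GENCODE 44 gave the symbols of 57532 of the 58302 genes, and the positions, hosts and sequences. A host is a gene on the same strand that contains the member. Targets were listed by hand from general knowledge.

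Counts were tested with edgeR 4.0.16 in R 4.3.3 (TMM factors, quasi-likelihood test, filterByExpr with a minimum count of 10 and total of 15), with Benjamini-Hochberg adjustment over the 5368 genes kept, which hold 97.5% to 98.1% of the counts. The common biological coefficient of variation was 0.0832. CPM were scaled with the TMM factors. Host ratios were compared by exact permutation over the 70 labelings with SciPy 1.17.1. The programs were tested on simulated data. A count of 0 was taken to allow up to 3 counts, counting error only.

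Members and lists were chosen with earlier results of these data known. Values are given for the 8 members with the largest rise among those called with separate CPM, the 8 with the largest fall (none met this), the 5 highest by mean CPM, SNORA73A and SNORA73B, members of hosts with 3 or more, the 2 on each side of the count limit, the protein lists, their hosts and APEX1. SNORA36C, SNORA22, SNORA19, SNORA5A, SNORA13, SNORA74D, SNORA74B, SNORA63D, SNORA47, SNORA11, SNORA80B and SNORA77 were chosen after their values were seen. The alternatives were DESeq2 1.42.0, other scaling factors, other filters, a block on the replicate number, and leaving out each library. Other assays of the study were not analysed here.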

Additional observations from a re-analysis of the deposited data

Results flagged for a closer look

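Among 66 groups of 4 libraries examined for the members given by value, 5 had a library far from its group by Dixon's criterion at the 95% level, where chance gives about 1 in 20. SNORA54 was lowest in replicate 1 labelled siCTRL, at 829 CPM, with the nearest library at 906. SNORA3B was highest in replicate 1 labelled siCTRL, at 3016 CPM, with the nearest at 2689. SNORA36C was highest in replicate 3 labelled siAPEX1, at 36.8 CPM, with the nearest at 29.6. SNORA13 was lowest in replicate 2 labelled siAPEX1, at 1041 CPM, with the nearest at 1251. SNORA80B was highest in replicate 4 labelled siCTRL, at 218 CPM, with the nearest at 202. In SNORA54, SNORA3B, SNORA36C and SNORA13 the groups did not overlap with that library included, and in SNORA80B they did.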

How the results depend on the processing

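With library size only, 24 members rose and 1 fell, 0 passed the fold threshold, the median of the members was 0.18, 5 H/ACA protein genes fell and 0 rose, and SNORA74B turned to -0.017 (edgeR adjusted p = 0.923), as did SNORA77, SNORA80B, SNORA11 and SNORA47, which did not pass in either fit, to -0.14, -0.15, -0.22 and -0.24. Over all genes this scaling gave 340 higher and 1945 lower, against 856 and 847 with TMM factors. TMM factors from protein-coding genes gave a median of 0.57. With all genes of at least 1 count, the median was 0.43, 3 members passed the fold threshold and 0 protein genes rose. With genes at 10 counts or more in each library, the median was 0.45, 3 members passed the fold threshold and 2 protein genes fell. DESeq2 called 55 members, 0 protein genes higher and 1123 genes in all, against 1703 with edgeR. Without mitochondrial and ribosomal RNA genes, the share of counts on the members differed by 0.809 percentage points in place of 0.514. With 1 library left out in turn, 54 to 57 members rose and 0 fell, the median was 0.52 to 0.57, 8 to 14 passed the fold threshold, 1 to 2 protein genes fell and 0 to 1 rose, and the share differed by 0.412 to 0.576. The cause of these shifts was not tested. The replicate block gave 56 members higher. Same-numbered libraries did not deviate together (correlations of -0.0373 to -0.0035), no library correlated best with its own number, and the numbers were not taken as pairs. Library size runs with the label in all 8 libraries, so no scaling can be checked within a group, and hosts with few counts had wide errors.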
